A study of Mus musculus with 9 samples.

Results

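The genes described here are 57 genes of DNA replication and S phase, taken by name from the 22068 genes counted in mouse embryonic fibroblasts (MEFs). They were listed for what their products do, in licensing of replication origins, DNA synthesis, nucleotide supply, E2F regulation and S phase repair, and not for a measured value. All 57 were found once in the count table, with between 21 and 9137 counts in every library. MEFs are primary connective tissue cells that divide in culture, here from the C57Bl/6 strain at passage 2. They received, by electroporation, a plasmid with a puromycin resistance gene and either V5-tagged human *CRX* (eutherian CRX), V5-tagged opossum *CRX* (metatherian CRX) or no homeobox gene (control), and RNA was taken after 5 days in puromycin. The labels put 48 h of recovery after the selection, whereas the study's methods put it before and give 1 night afterwards. CRX is a transcription factor of photoreceptors that fibroblasts do not normally use, so that the cells are a host for an ectopic gene. Poly-A RNA of 3 libraries per condition was sequenced, and the question put to these genes is how their RNA levels compared with control under each *CRX* orthologue and between the orthologues.

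A cell copies its genome once per division, in S phase. In G1, the origin recognition complex, CDC6 and CDT1 load the MCM2 to MCM7 helicase onto DNA, a step called licensing, and in S phase CDC45 and the GINS complex turn the loaded helicase on so that polymerases, the sliding clamp PCNA and its loader RFC can copy both strands. Transcription of many of these genes is switched on at the G1/S transition by activating E2F factors once cyclin-dependent kinases release them from pocket proteins, and is damped later by repressor E2Fs, which makes their RNA a common measure of how much a culture cycles. In bulk RNA of a culture, fewer cells in S phase and less of such RNA per cell cannot be told apart.

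Promoters of 47 of the 57 genes were held in the RefSeq table used here (GRCm38.p6, 250 bases before to 50 after each start site), and an E2F-type word was searched in them. The words were TTTCCCGC, TTTGGCGC, TTTCGCGC and TTTGCCGC on both strands, and none of them contains the CCAAT box or the CHR word given next. At least 1 E2F-type word lay in 21 of the 47 genes (44.7%), against 704 of all 27025 genes in the table (2.605%). The CCAAT box lay in 30 of the 47 genes (63.8%) and in 41.06% of all genes, and TTTGAA, the core of the CHR element of many mitosis genes, in 6 of the 47 (12.8%) and in 20.2% of all genes. A match is a description of the letters, not a bound site. Among the 21 genes with the E2F-type word, the median log2 fold change against control was -0.56 with eutherian and -0.57 with metatherian CRX, and among the 26 genes without it -0.40 and -0.47. At an unadjusted p under 0.05, 14 of the 21 genes with the word were lower with eutherian and 13 with metatherian CRX, and 15 and 17 of the 26 without it, in a fit of 14599 genes where 7.16% and 10.8% of all genes were. The word was in none of the promoters given for *Tk1*, *Rad51ap1* and *Chaf1b*, which were also low with both orthologues. The following 5 promoters hold the word and were chosen, after the values had been seen, to show 4 genes that were low with both orthologues (*Lig1*, *Clspn*, *Mcm3* and *Uhrf1*) and 1 that was not (*Msh6*). Capitals mark the E2F-type words, the sequences run 5′ to 3′ on the gene's strand, and positions count from the start site at base 251 as 1.
*Lig1*, chr7:13278576-13278875, plus strand, 1 of 3 RefSeq start sites, with the word from position 27: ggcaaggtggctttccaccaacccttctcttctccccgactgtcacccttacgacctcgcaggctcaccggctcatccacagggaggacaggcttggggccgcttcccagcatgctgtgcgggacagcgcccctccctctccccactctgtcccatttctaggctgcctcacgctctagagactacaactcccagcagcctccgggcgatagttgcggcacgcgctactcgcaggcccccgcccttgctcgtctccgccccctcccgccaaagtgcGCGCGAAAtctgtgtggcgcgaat
*Clspn*, chr4:126556730-126557029, plus strand, with the word from position 22: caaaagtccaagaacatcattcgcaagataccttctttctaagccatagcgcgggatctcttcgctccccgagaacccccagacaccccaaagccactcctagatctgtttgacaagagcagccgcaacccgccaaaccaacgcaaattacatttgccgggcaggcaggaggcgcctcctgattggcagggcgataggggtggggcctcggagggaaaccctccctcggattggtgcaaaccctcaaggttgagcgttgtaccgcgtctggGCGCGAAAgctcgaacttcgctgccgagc
*Mcm3*, chr1:20820263-20820562, minus strand, with 2 words, the first from position 20: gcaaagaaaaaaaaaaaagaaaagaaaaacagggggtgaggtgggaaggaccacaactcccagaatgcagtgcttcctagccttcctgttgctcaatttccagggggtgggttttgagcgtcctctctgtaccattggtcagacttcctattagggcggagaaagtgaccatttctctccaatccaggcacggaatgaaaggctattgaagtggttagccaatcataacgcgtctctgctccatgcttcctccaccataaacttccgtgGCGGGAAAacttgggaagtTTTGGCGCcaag
*Uhrf1*, chr17:56304063-56304362, plus strand, 1 of 2 RefSeq start sites, with the word from position -185: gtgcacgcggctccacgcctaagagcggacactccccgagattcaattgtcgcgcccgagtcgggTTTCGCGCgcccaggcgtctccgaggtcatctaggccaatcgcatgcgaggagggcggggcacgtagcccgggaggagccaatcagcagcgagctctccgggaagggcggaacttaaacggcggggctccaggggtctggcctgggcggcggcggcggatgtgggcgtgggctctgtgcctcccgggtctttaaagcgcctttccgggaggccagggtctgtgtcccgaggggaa
*Msh6*, chr17:87974800-87975099, plus strand, with the word from position 16: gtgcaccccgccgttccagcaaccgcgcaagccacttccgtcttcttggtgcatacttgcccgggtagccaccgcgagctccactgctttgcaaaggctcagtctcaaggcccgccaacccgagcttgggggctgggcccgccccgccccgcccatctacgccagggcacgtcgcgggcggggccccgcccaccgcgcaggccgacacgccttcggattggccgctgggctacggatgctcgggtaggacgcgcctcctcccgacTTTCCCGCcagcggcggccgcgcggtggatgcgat
The word lay just downstream of the start site in 4 of the 5 promoters, *Msh6* included, and upstream of it in *Uhrf1*, whose other start site, at the start of the counted gene, had no word in its promoter.

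The libraries held between 54145701 and 94699657 counts on genes, and the TMM factors, which scale libraries to each other, lay between 0.960 and 1.105. The libraries numbered 3 stood apart. On the first principal component of all tested genes (56.0% of the variance), eutherian CRX replicate 3 lay at 55.0 and replicates 1 and 2 at -27.4 and -30.9. Results are therefore also given without the 3 libraries of that number, a setting added after seeing the data. *Crx* itself had 0, 0 and 0 counts in control, 627, 995 and 313 with human *CRX* and 4, 0 and 0 with opossum *CRX*, so that this check of the labels covers the eutherian libraries only. All 13 fibroblast markers were expressed, with a summed level of 44556 to 53533 CPM (counts relative to the scaled library size) in control, 19166 to 42461 CPM with eutherian and 24056 to 44954 CPM with metatherian CRX, and the lowest sum of each condition was in its library numbered 3. Of 16 macrophage and leukocyte markers 15 were listed in the file, and their sum was 17.2 to 56.1 CPM in control, 10.2 to 31.6 CPM with eutherian and 7.78 to 15.5 CPM with metatherian CRX. Among their defining genes, *Aif1* was at 0 in 4 of the libraries and *Ptprc* at 0 in none. At an unadjusted p under 0.05, 3 of the 13 fibroblast markers were lower with eutherian CRX (median log2 fold change -0.31), and with metatherian CRX 9 were lower and 1 higher (median -1.12). Of 14 macrophage and leukocyte markers tested, 1 was lower with eutherian (median -0.87) and 9 with metatherian CRX (median -1.97). Of all 14599 genes in that fit, 7.16% were lower with eutherian CRX, and 10.8% lower and 9.61% higher with metatherian CRX. The part of either marker list in the results was not tested. Endothelial markers summed to at most 18.5 CPM in any library, epithelial to 12.6, skeletal muscle to 18.7 and neural to 134 CPM, with *Cldn5* and *Myf5* at 0 throughout.

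Replication genes as a group were lower than in control with either orthologue. Relative to the control mean, the median log2 level of the 57 genes was -0.010, 0.13 and -0.12 in the control libraries, -0.47, -0.56 and -0.59 with eutherian CRX, and -0.53, -0.70 and -0.42 with metatherian CRX. Every CRX library was thus below every control library, and the libraries of the 2 orthologues overlapped. The medians of all 14599 expressed genes lay between -0.029 and 0.016 in the same libraries. Summed over the 57 genes, the level was 1328, 1450 and 1271 CPM in control, 1019, 987 and 1041 CPM with eutherian CRX, and 1013, 947 and 1124 CPM with metatherian CRX. On the first principal component of the 57 genes alone (61.7% of their variance), the control libraries lay between -4.35 and -2.17 and the 6 CRX libraries between 0.707 and 3.32, so that eutherian CRX replicate 3, far from its replicates over all genes, lay on the side of the other CRX libraries here. 

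**Figure D1:**
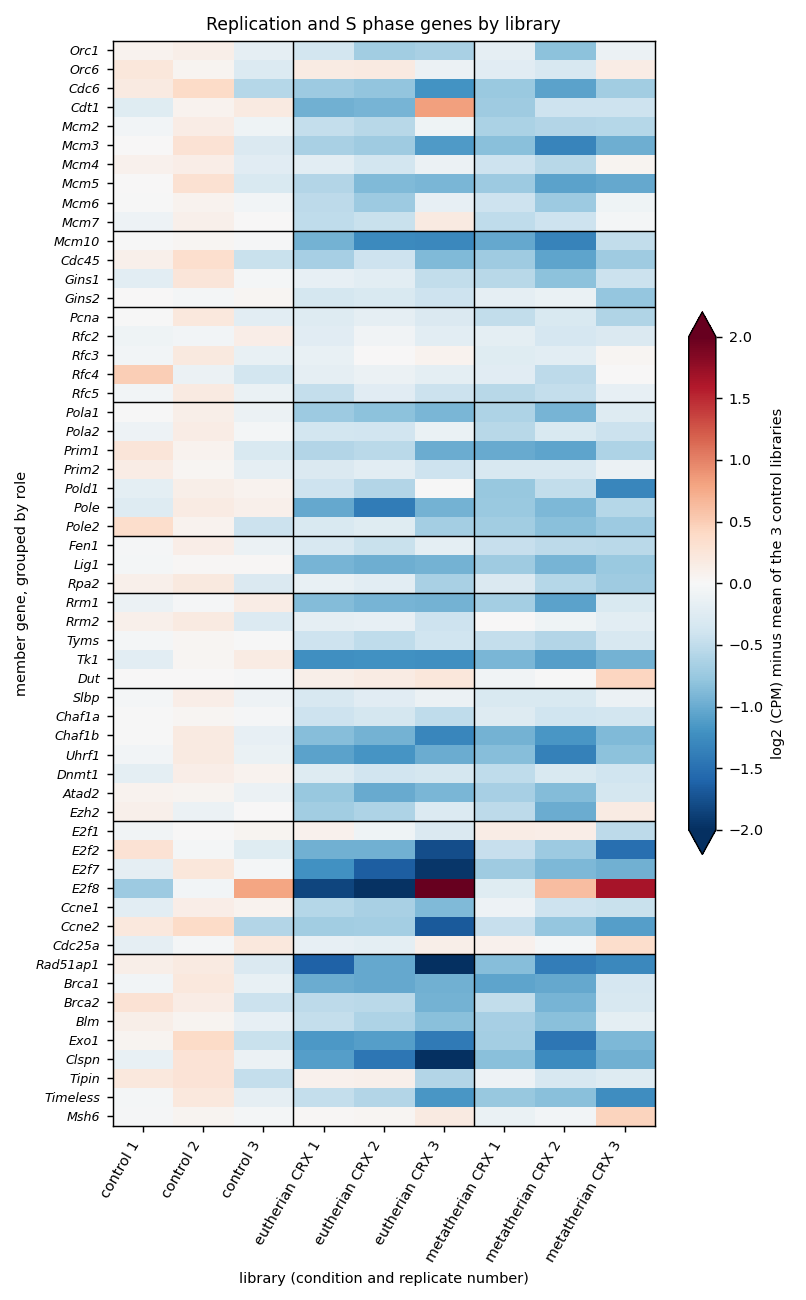
Log2 CPM of each of the 57 members (rows, grouped by role) in each of the 9 libraries (columns), relative to the mean of the 3 control libraries; blue is lower and red is higher, and the scale ends at -2 and 2. All 3 libraries are below all 3 controls in 36 genes with eutherian (all genes 8.93%) and in 39 with metatherian CRX (all genes 13.6%). *E2f8* in replicates 3 and *Cdt1* in eutherian CRX replicate 3 stand out in red.

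The map of log2 levels shows the same by gene. It also shows where single libraries left their condition, as in *Pold1*, at 9.64 and 11.6 CPM in metatherian CRX replicates 1 and 2 and at 6.62 CPM in replicate 3.

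Single genes were tested with edgeR's quasi-likelihood test. The 9 libraries entered together, replicate numbers formed the blocks, and p-values were adjusted after Benjamini and Hochberg over the 10100 genes whose mean exceeded 2 FPKM (fragments scaled to transcript length and library size) in at least 1 condition. Of the 57 members 45 entered it. The other 12, *Orc1*, *Cdc6*, *Mcm10*, *Gins1*, *Pole*, *E2f2*, *E2f7*, *Brca1*, *Brca2*, *Blm*, *Exo1* and *Timeless*, lay below 2 FPKM in every condition. A further 8 members entered only because control was above that level, so a count over these 45 genes favours members that were high in control. Counts over all 57 therefore come from a second fit of all 14599 genes that passed edgeR's filterByExpr, with no FPKM limit. Nothing in the sources used here says that the 3 libraries of a condition came from separate cultures, so the p-values measure only the spread between these libraries, which may be technical.

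With eutherian CRX against control, 2 of the 45 members, *Lig1* and *Tk1*, fell at an adjusted p under 0.05 in edgeR, where 0.584% of all 10100 genes were called lower. At an unadjusted p under 0.05, 24 of the 45 were lower (all genes 6.34%) and 0 were higher, and DESeq2 called 14 lower at an adjusted p under 0.05 (all genes 2.92%). In the fit of 14599 genes, 33 of 57 members were lower at an unadjusted p under 0.05 (all genes 7.16%), and 3, *E2f7* besides *Lig1* and *Tk1*, at an adjusted p under 0.05 (all genes 0.603%). All 3 eutherian CRX libraries were below all 3 control libraries in 36 of the 57 genes (all genes 8.93%), and in 44 each eutherian library was below the control of its number (all genes 19.5%). The median log2 fold change of the 57 genes was -0.42, beside 0.0058 for all genes, with a range from -1.58 in *E2f7* to 0.18 in *Dut*, and 54 were below 0. Without the libraries numbered 3, 16 of 45 members were called lower in edgeR at an adjusted p under 0.05 (all genes 2.47%), with a median of -0.47.

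With metatherian CRX against control, 0 of the 45 members passed at an adjusted p under 0.05 in edgeR, where 0.0297% of all genes were called lower, and the smallest adjusted p of a member was 0.072 in *Lig1*, *Tk1* and *Mcm5*. At an unadjusted p under 0.05, 25 of the 45 were lower (all genes 10.5%) and 0 higher, and DESeq2 called 22 of them lower at an adjusted p under 0.05 (all genes 5.27%). In the fit of 14599 genes, 35 of 57 members were lower at an unadjusted p under 0.05 (all genes 10.8%) and again 0 at an adjusted one (all genes 0.0137%). All metatherian libraries were below all control libraries in 39 of the 57 genes (all genes 13.6%), and in 41 each was below the control of its number (all genes 26.9%). The median log2 fold change of the 57 genes was -0.50, beside -0.0094 for all genes, with a range from -1.13 in *Rad51ap1* to 0.66 in *E2f8*, and 53 were below 0. Without the libraries numbered 3, edgeR called 32 of 45 members lower at an adjusted p under 0.05 (all genes 11.1%), with a median of -0.57. The 2 comparisons share their 3 control libraries, so their values are not independent of each other.

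Limiting the view to the 37 members above 2 FPKM in every condition, which leaves out the 8 that were above it in control only, *Tk1*, *Clspn* and *Rad51ap1* among them, and so favours small differences, gave medians of -0.32 with eutherian and -0.40 with metatherian CRX, and 17 of the 37 were lower at an unadjusted p under 0.05 with each orthologue (all genes above that level 5.08% with eutherian and 8.9% with metatherian CRX).

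**Figure D2:**
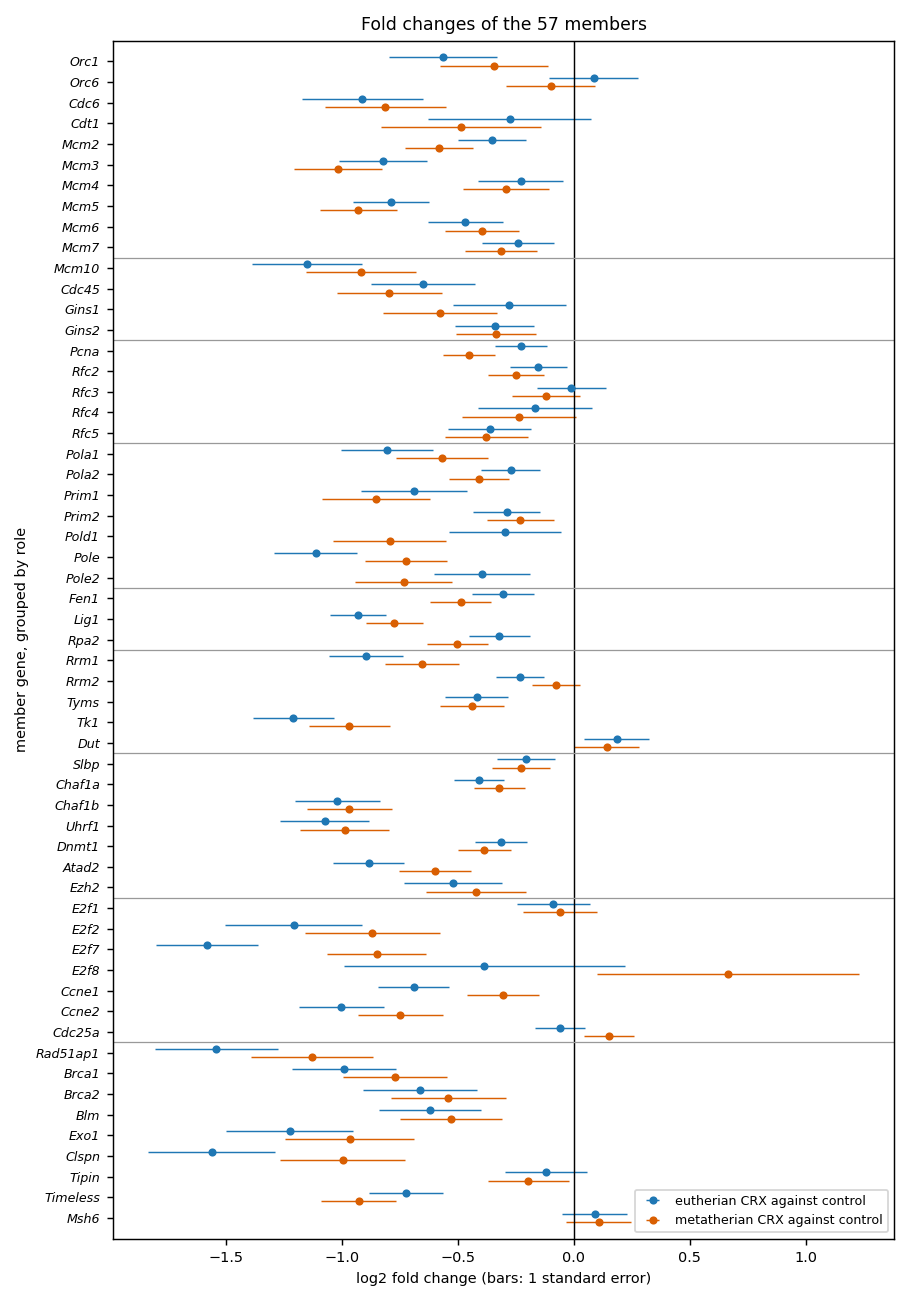
Log2 fold change against control (x axis) of each of the 57 members (y axis, grouped by role) with eutherian and metatherian CRX, from the fit of 14599 genes; points are estimates and bars are 1 standard error on either side. Most points lie left of 0 for both orthologues, from -1.58 in *E2f7* with eutherian CRX to 0.66 in *E2f8* with metatherian CRX.

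The plot of fold changes orders the members by the step they serve, and the account by role follows that order. Role medians and counts are from the fit of 14599 genes, and values of single genes from the fit of 10100 genes where they entered it.

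Among the 10 genes of licensing and helicase loading, the median log2 fold change was -0.41 with eutherian and -0.44 with metatherian CRX. No member passed at an adjusted p under 0.05, and at an unadjusted one 6 were lower with eutherian (all genes 7.16%) and 5 with metatherian CRX (all genes 10.8%). *Mcm5*, a helicase subunit on chromosome 8 (75109509 to 75128439), was at 27.7, 34.0 and 22.3 CPM in control, 18.4, 14.9 and 14.6 CPM with eutherian CRX, and 16.6, 13.2 and 13.5 CPM with metatherian CRX. All 6 CRX libraries were below all 3 controls. Its log2 fold change was -0.81 (standard error 0.16, edgeR adjusted p = 0.13) with eutherian and -0.95 (standard error 0.16, edgeR adjusted p = 0.072) with metatherian CRX. *Mcm3*, another subunit on chromosome 1 (20803014 to 20820213) and the member with the second lowest fold change with metatherian CRX, was at 42.8, 51.7 and 34.7 CPM in control, 27.1, 25.8 and 19.4 CPM with eutherian CRX and 23.8, 17.0 and 21.5 CPM with metatherian CRX. All CRX libraries of *Mcm3* again lay below all controls, with log2 fold changes of -0.84 (standard error 0.19, edgeR adjusted p = 0.17) and -1.04 (standard error 0.19, edgeR adjusted p = 0.082).

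The 6 subunits of the helicase ring had values of different size. *Mcm2*, *Mcm4*, *Mcm6* and *Mcm7* had log2 fold changes of -0.37, -0.25, -0.48 and -0.26 with eutherian CRX and of -0.60, -0.31, -0.42 and -0.33 with metatherian CRX, each nearer 0 than *Mcm3* and *Mcm5*, a difference between subunits that was not tested. In *Mcm7*, eutherian CRX replicate 3 at 30.0 CPM lay above all 3 controls (24.7 to 28.4 CPM), whereas replicates 1 and 2 at 18.7 and 19.6 CPM lay below them. *Cdt1*, the licensing factor that is destroyed in S phase, showed this more strongly, at 8.81, 11.0 and 11.8 CPM in control, 5.35, 5.45 and 18.4 CPM with eutherian CRX and 6.34, 7.82 and 7.87 CPM with metatherian CRX. The eutherian libraries of *Cdt1* thus lay on both sides of the controls, and the metatherian libraries lay below them. *Cdc6* and *Orc1*, which were below 2 FPKM, had log2 fold changes of -0.91 and -0.56 with eutherian and -0.81 and -0.34 with metatherian CRX in the fit of 14599 genes. *Orc6*, an origin recognition subunit, was at 28.2 to 39.8 CPM in control, 31.6 to 38.5 CPM with eutherian and 27.3 to 37.7 CPM with metatherian CRX, so its groups overlapped.

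The 4 genes of helicase activation had medians of -0.50 with eutherian and -0.69 with metatherian CRX, and all 4 had metatherian libraries below every control (all genes 13.6%). *Cdc45*, part of the active helicase, was at 11.7, 13.7 and 7.99 CPM in control, 6.81, 8.15 and 5.87 CPM with eutherian CRX and 6.61, 5.24 and 6.61 CPM with metatherian CRX. Only 1 eutherian library reached into the control range. The log2 fold changes of *Cdc45* were -0.67 (standard error 0.22, edgeR adjusted p = 0.44) and -0.82 (standard error 0.22, edgeR adjusted p = 0.13), and the authors' annotation gives it exons on chromosome 16 and on a separate scaffold. *Mcm10*, which helps the helicase to start, had the lowest fold changes of the role in the fit of 14599 genes, at 6.71, 6.94 and 6.63 CPM in control against 3.49, 2.81 and 2.78 CPM with eutherian CRX and 3.32, 2.67 and 4.79 CPM with metatherian CRX. These levels gave log2 fold changes of -1.15 and -0.92. The GINS subunits were nearer to control, with *Gins2* at -0.36 for both orthologues and *Gins1* at -0.28 and -0.58.

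The sliding clamp and its loader stood closest to control of all roles, with medians of -0.17 and -0.25 over 5 genes. None of them was lower at an unadjusted p under 0.05 with eutherian CRX (all genes 7.16%), and 1, *Pcna*, was with metatherian CRX (all genes 10.8%). *Pcna*, on chromosome 2 (132249286 to 132253180), was at 24.2, 28.3 and 21.2 CPM in control, 20.3, 21.5 and 19.9 CPM with eutherian CRX and 17.3, 19.7 and 16.0 CPM with metatherian CRX. The eutherian libraries overlapped the lowest control and the metatherian libraries did not. Its log2 fold change was -0.24 (standard error 0.11, edgeR adjusted p = 0.60) and -0.47 (standard error 0.11, edgeR adjusted p = 0.10). The loader subunits *Rfc2*, *Rfc3*, *Rfc4* and *Rfc5* had values of -0.17, -0.03, -0.19 and -0.38 with eutherian and -0.27, -0.14, -0.26 and -0.40 with metatherian CRX.

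Of the 7 genes of polymerases and primase, 3 were lower at an unadjusted p under 0.05 with eutherian (all genes 7.16%) and 6 with metatherian CRX (all genes 10.8%). Their medians were -0.40 and -0.72. Not 1 of them passed at an adjusted p under 0.05. *Pola1*, the catalytic subunit of the polymerase that starts each new strand, on chromosome X (93304766 to 93632202), was at 16.3, 17.8 and 15.1 CPM in control, 9.89, 9.29 and 8.66 CPM with eutherian CRX and 10.6, 8.57 and 13.7 CPM with metatherian CRX. All CRX libraries were below the controls, with 1 metatherian library close to them. The log2 fold changes of *Pola1* were -0.82 (standard error 0.19, edgeR adjusted p = 0.20) and -0.59 (standard error 0.19, edgeR adjusted p = 0.18). *Pole*, the catalytic subunit of the leading-strand polymerase, was at 11.4, 15.1 and 14.5 CPM in control, 6.67, 5.12 and 7.03 CPM with eutherian CRX and 8.13, 7.27 and 9.18 CPM with metatherian CRX. It narrowly missed the threshold with eutherian CRX in the fit of 14599 genes (log2 fold change -1.11, edgeR adjusted p = 0.053), and its value with metatherian CRX was -0.72 (edgeR adjusted p = 0.10). *Prim1*, the small primase subunit, had values of -0.71 and -0.87, while *Prim2*, the large one, had -0.31 and -0.25.

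Okazaki fragments, the short pieces of the lagging strand, are trimmed by FEN1 and joined by LIG1. The 3 genes of this role had medians of -0.32 with eutherian and -0.50 with metatherian CRX, and 2 and 3 of them were lower at an unadjusted p under 0.05 (all genes 7.16% and 10.8%). *Lig1*, on chromosome 7 (13277313 to 13311427), was at 20.5, 21.2 and 21.2 CPM in control, 11.1, 10.7 and 10.9 CPM with eutherian CRX and 12.8, 11.0 and 12.5 CPM with metatherian CRX. The replicates of *Lig1* lay close together and the CRX libraries far below control, including those numbered 3. It fell with eutherian CRX by 48.1% (log2 fold change -0.95, standard error 0.11, edgeR adjusted p = 0.032) and its value with metatherian CRX was -0.80 (standard error 0.11, edgeR adjusted p = 0.072). The call rests on the block and on the libraries in the fit. Without the block the adjusted p of *Lig1* with eutherian CRX was 0.073 in edgeR, with only the 6 libraries compared 0.071, and with 1 library left out it ranged from 0.025 to 0.28, while the log2 fold change stayed between -0.99 and -0.90. The exons of *Lig1* share 116 bases with a gene on the opposite strand, and the strand setting of the counting is not given in the sources used here.

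*Fen1*, on chromosome 19 (10199132 to 10204187), was at 19.6, 22.0 and 18.4 CPM in control, 15.9, 14.7 and 17.4 CPM with eutherian CRX and 14.6, 13.9 and 13.7 CPM with metatherian CRX. No CRX library reached the controls, although the distance was small, with log2 fold changes of -0.32 (standard error 0.13, edgeR adjusted p = 0.55) and -0.51 (standard error 0.13, edgeR adjusted p = 0.12). *Rpa2*, a subunit of the complex that coats single-stranded DNA, had values of -0.34 and -0.52.

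Nucleotide supply, with medians of -0.42 and -0.44 over 5 genes, held both the other called gene and the member highest with eutherian CRX. With each orthologue 3 of the 5 were lower at an unadjusted p under 0.05 (all genes 7.16% with eutherian and 10.8% with metatherian CRX). *Tk1*, thymidine kinase of the salvage pathway, on chromosome 11 (117815509 to 117826014), was at 5.76, 6.88 and 7.49 CPM in control, 2.84, 2.86 and 2.86 CPM with eutherian CRX and 3.54, 3.12 and 3.45 CPM with metatherian CRX. All CRX libraries lay well below the controls and close to each other. It fell with eutherian CRX by 57.3% (log2 fold change -1.23, standard error 0.17, edgeR adjusted p = 0.039), and its value with metatherian CRX was -0.99 (standard error 0.17, edgeR adjusted p = 0.072). As for *Lig1*, the call was lost without the block (edgeR adjusted p = 0.073), with only the 6 libraries compared (edgeR adjusted p = 0.087), and in 8 of the 9 fits without 1 library, all but the fit without metatherian CRX replicate 3, in which *Lig1* also passed. Its log2 fold change stayed between -1.34 and -1.15 under all alternatives run. *Tk1* shares 88 exon bases with *Afmid* on the opposite strand.

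Ribonucleotide reductase, which makes deoxynucleotides, has a large and a small subunit, and a difference between them was not tested. *Rrm1*, the large subunit, was at 90.2, 96.2 and 109 CPM in control, 53.6, 51.3 and 50.9 CPM with eutherian CRX and 60.9, 46.7 and 79.6 CPM with metatherian CRX, all below control, with log2 fold changes of -0.91 (edgeR adjusted p = 0.077) and -0.68 (edgeR adjusted p = 0.11). *Rrm2*, the small subunit that is made in S phase, on chromosome 12 (24708254 to 24714146), was at 94.2, 99.9 and 72.9 CPM in control, 78.0, 78.8 and 66.4 CPM with eutherian CRX and 88.6, 83.0 and 76.3 CPM with metatherian CRX. The groups of *Rrm2* overlapped, with replicate 3 the lowest control, and its values were -0.25 (standard error 0.09, edgeR adjusted p = 0.51) and -0.10 (standard error 0.09, edgeR adjusted p = 0.60). Per length, *Rrm2* was the most abundant member, at 39.6 FPKM in control, and *E2f2* the least, at 0.184 FPKM. *Tyms*, thymidylate synthase, had log2 fold changes of -0.44 and -0.46 with no overlap between CRX and control libraries.

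*Dut*, the dUTPase that keeps uracil out of DNA, was at 24.8, 24.8 and 24.3 CPM in control, 26.7, 27.7 and 28.9 CPM with eutherian CRX and 23.4, 24.6 and 33.2 CPM with metatherian CRX. It was the only member whose eutherian libraries all lay above the controls, by a log2 fold change of 0.17 that did not pass (standard error 0.13, edgeR adjusted p = 0.81). With metatherian CRX the value of 0.12 came from replicate 3 and was -0.054 without the libraries numbered 3.

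**Figure D3:**
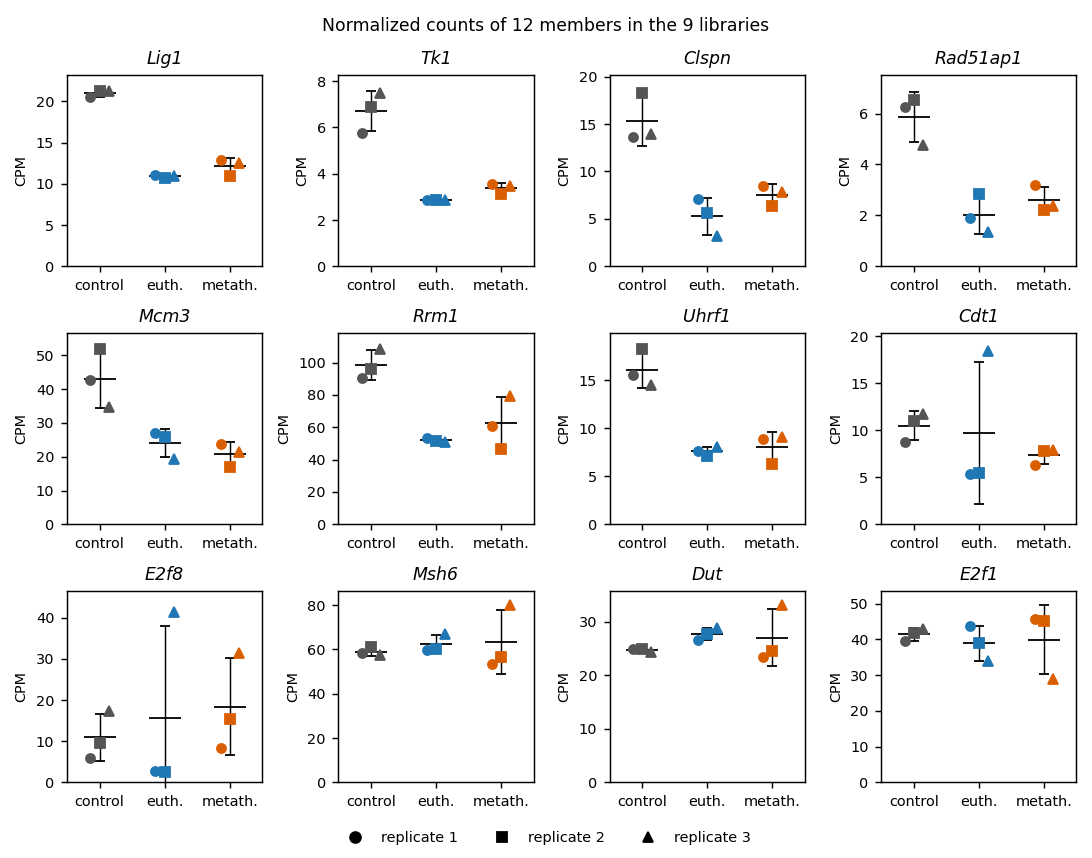
CPM (y axes, from 0) of 12 members in control, eutherian CRX (euth.) and metatherian CRX (metath.) libraries; points are libraries with the marker shape giving the replicate number, and bars are the mean ± SD of 3 libraries (the eutherian bar of *E2f8* reaches below 0 and is not drawn there). In the first 7 panels, from *Lig1* to *Uhrf1*, all CRX libraries lie below all controls, and in the last 5, from *Cdt1* to *E2f1*, at least 1 does not.

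The plot of single libraries sets members whose CRX libraries all lay below the controls beside members where this was not so. In *Cdt1*, *E2f8*, *Msh6* and *Dut* the highest library was 1 of those numbered 3.

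Among the 7 genes of histone supply, chromatin and DNA methylation, 6 were lower at an unadjusted p under 0.05 with eutherian (all genes 7.16%) and 5 with metatherian CRX (all genes 10.8%). Their medians were -0.52 and -0.42, and none passed at an adjusted p under 0.05. *Uhrf1*, which guides DNA methylation to newly copied DNA, on chromosome 17 (56303337 to 56323486), was at 15.5, 18.2 and 14.5 CPM in control, 7.65, 7.09 and 8.03 CPM with eutherian CRX and 8.86, 6.25 and 9.07 CPM with metatherian CRX. No CRX library reached 10 CPM, with log2 fold changes of -1.09 (standard error 0.19, edgeR adjusted p = 0.080) and -1.01 (standard error 0.19, edgeR adjusted p = 0.084). *Chaf1b*, a subunit of the complex that places new histones behind the fork, was at 10.7, 12.1 and 9.59 CPM in control, 5.94, 5.55 and 4.34 CPM with eutherian CRX and 5.60, 4.80 and 5.82 CPM with metatherian CRX. Its CRX libraries likewise all lay below its controls, at -1.04 (standard error 0.18, edgeR adjusted p = 0.080) and -0.99 (standard error 0.18, edgeR adjusted p = 0.082). *Chaf1a*, its partner subunit, was nearer to control at -0.43 and -0.34. *Atad2*, an E2F-regulated chromatin ATPase, was at -0.90 and -0.62, *Ezh2*, a histone methyltransferase, at -0.54 and -0.44, *Dnmt1*, the maintenance DNA methyltransferase, at -0.33 and -0.41, and *Slbp*, which binds histone mRNA, at -0.23 and -0.25.

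The 7 E2F factors and G1/S regulators had a median of -0.69 with eutherian CRX (range -1.58 to -0.061) and of -0.31 with metatherian CRX (range -0.87 to 0.66). *E2f1*, an activating E2F on chromosome 2 (154559400 to 154569892), was at 39.6, 41.7 and 42.9 CPM in control, 43.7, 39.0 and 33.9 CPM with eutherian CRX and 45.8, 45.2 and 28.9 CPM with metatherian CRX. Its groups overlapped, the lowest library of each CRX condition was replicate 3, and the log2 fold changes were -0.11 (standard error 0.16, edgeR adjusted p = 0.92) and -0.08 (standard error 0.16, edgeR adjusted p = 0.81). *E2f2*, another activating E2F, was at 0.278 to 1.15 CPM in the 9 libraries, with values of -1.21 and -0.87 in the fit of 14599 genes.

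Of the repressor E2Fs, *E2f7*, on chromosome 10 (110745427 to 110787384) and below 2 FPKM, was at 7.04, 9.37 and 7.77 CPM in control, 3.47, 2.55 and 2.09 CPM with eutherian CRX and 4.88, 4.28 and 4.13 CPM with metatherian CRX, with all 3 groups separate. It fell with eutherian CRX in the fit of 14599 genes (log2 fold change -1.58, standard error 0.22, edgeR adjusted p = 0.037), and its value with metatherian CRX was -0.85 (standard error 0.21, edgeR adjusted p = 0.11). The call of *E2f7* was lost without the block (edgeR adjusted p = 0.095) and in 8 of the 9 fits without 1 library, all but that without metatherian CRX replicate 3, while its log2 fold change stayed between -1.79 and -1.43. *E2f8*, on chromosome 7 (48866429 to 48882142), was at 6.00, 9.60 and 17.3 CPM in control, 2.79, 2.54 and 41.5 CPM with eutherian CRX and 8.42, 15.3 and 31.4 CPM with metatherian CRX. The library numbered 3 was the highest in each condition, and eutherian CRX replicate 3 was the highest of all. The log2 fold change of *E2f8* with eutherian CRX was -0.40 (standard error 0.62, edgeR adjusted p = 0.93), became 0.51 without the block, and was -1.50 without the libraries numbered 3 (edgeR adjusted p = 0.032). With metatherian CRX it was 0.65 (standard error 0.58, edgeR adjusted p = 0.58), and each metatherian library was above the control of its number. That value was 0.24 without control replicate 3, 0.27 without metatherian CRX replicate 2, and 1.00 without control replicate 2, and with only the 6 libraries compared it was 0.68 (edgeR adjusted p = 0.081).

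The E cyclins drive entry into S phase with CDK2, and neither passed at an adjusted p under 0.05. *Ccne1* was at 28.2, 35.8 and 33.9 CPM in control, 21.8, 20.8 and 17.6 CPM with eutherian CRX and 30.3, 24.4 and 23.7 CPM with metatherian CRX. The eutherian libraries lay below the controls and the metatherian libraries overlapped them, with log2 fold changes of -0.71 (standard error 0.16, edgeR adjusted p = 0.16) and -0.33 (standard error 0.15, edgeR adjusted p = 0.30). *Ccne2* had values of -1.02 (edgeR adjusted p = 0.082) and -0.77 (edgeR adjusted p = 0.11), and since it shares 1734 exon bases with *Ints8* on the opposite strand, its reads may include those of that gene. *Cdc25a*, a phosphatase that activates CDKs, was at 22.9 to 30.3 CPM in control, 22.8 to 28.4 CPM with eutherian and 25.3 to 33.2 CPM with metatherian CRX. Its values of -0.08 (edgeR adjusted p = 0.90) and 0.13 (edgeR adjusted p = 0.53) lay within the spread of the libraries.

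Repair and fork protection had the lowest role medians, -0.72 with eutherian and -0.77 with metatherian CRX over 9 genes, 7 and 6 of which were lower at an unadjusted p under 0.05 (all genes 7.16% and 10.8%). *Clspn*, claspin, a fork protein that carries the checkpoint signal to CHK1, on chromosome 4 (126556951 to 126594533), was at 13.7, 18.3 and 13.9 CPM in control, 7.09, 5.57 and 3.21 CPM with eutherian CRX and 8.46, 6.33 and 7.82 CPM with metatherian CRX. All CRX libraries were below all controls. Its log2 fold change of -1.58 with eutherian CRX was the lowest of the 45 tested members and did not pass (standard error 0.28, edgeR adjusted p = 0.082), and with metatherian CRX it was -1.02 (standard error 0.27, edgeR adjusted p = 0.13). *Rad51ap1*, a DNA repair gene on chromosome 6 (126923415 to 126939621), was at 6.27, 6.55 and 4.75 CPM in control, 1.90, 2.85 and 1.34 CPM with eutherian CRX and 3.20, 2.23 and 2.39 CPM with metatherian CRX. The CRX libraries of *Rad51ap1* were all below the controls too, at -1.56 (standard error 0.26, edgeR adjusted p = 0.070) and -1.15 (standard error 0.26, edgeR adjusted p = 0.10).

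*Brca1*, which acts in repair by recombination, on chromosome 11 (101488754 to 101551956), was at 10.5, 12.6 and 9.88 CPM in control, 5.48, 5.36 and 5.61 CPM with eutherian CRX and 5.27, 5.40 and 8.69 CPM with metatherian CRX. All CRX libraries were below control, with log2 fold changes in the fit of 14599 genes of -0.99 (standard error 0.22, edgeR adjusted p = 0.15) and -0.77 (standard error 0.22, edgeR adjusted p = 0.13). In the same fit, the nuclease *Exo1* had values of -1.22 and -0.97, the recombination mediator *Brca2* -0.66 and -0.54, the helicase *Blm* -0.62 and -0.53, and the fork protector *Timeless* -0.72 and -0.93. *Tipin*, the partner of *Timeless*, was nearer to control at -0.14 and -0.22. *Msh6*, a mismatch recognition subunit on chromosome 17 (87975050 to 87990892), was not lower, at 58.2, 61.0 and 57.6 CPM in control, 59.6, 60.3 and 66.9 CPM with eutherian CRX and 53.6, 56.6 and 80.0 CPM with metatherian CRX. The log2 fold changes of 0.07 (standard error 0.13, edgeR adjusted p = 0.94) and 0.08 (standard error 0.14, edgeR adjusted p = 0.77) came with overlapping groups, and replicate 3 was the highest library of each CRX condition.

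Between the orthologues, 0 of the 45 members differed at an adjusted p under 0.05 in edgeR (all genes 0%). At an unadjusted p under 0.05, 1 member did (all genes 11.5%), and DESeq2 called 0 members at an adjusted p under 0.05 (all genes 3.14%). The member at an unadjusted p under 0.05 was *Ccne1*, higher with metatherian CRX by 0.38 (standard error 0.15, edgeR adjusted p = 0.42). In the fit of 14599 genes there were 2 of 57 (all genes 11.7%), *Ccne1* and *E2f7*, the latter higher with metatherian CRX by a log2 difference of 0.73 (standard error 0.21, edgeR adjusted p = 0.29). Of the 57 members 31 were higher and 26 lower with metatherian than with eutherian CRX, and their median difference was 0.029. Per role, the median difference ran from -0.18 in Okazaki fragment processing to 0.34 in E2F factors and G1/S regulators. The share of members at an unadjusted p under 0.05 was thus below that of all genes in these fits. This did not hold without metatherian CRX replicate 2, where 4 members were higher (all genes 3.85%) and 1 lower (all genes 3.62%). A p that misses the threshold does not show equal levels.

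Other cell cycle lists were set beside the members in the fit of 14599 genes. Of 60 further replication and S phase genes, 19 were lower at an unadjusted p under 0.05 with eutherian (all genes 7.16%) and 16 with metatherian CRX (all genes 10.8%), 0 were higher, and their medians of -0.27 and -0.26 were nearer to 0 than those of the members. *Ccna2*, cyclin A2 of S and G2 phase, had the smallest p of that list with eutherian CRX and was at 18.1, 17.8 and 24.2 CPM in control, 5.23, 5.58 and 7.97 CPM with eutherian CRX and 10.7, 7.58 and 15.8 CPM with metatherian CRX. All CRX libraries of *Ccna2* lay below the controls, and eutherian CRX replicate 3 overlapped the metatherian libraries. In that fit *Ccna2* had values of -1.67 (edgeR adjusted p = 0.025) and -0.84 (edgeR adjusted p = 0.081).

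Of 46 mitosis genes, 42 were lower (all genes 7.16%) and 1 higher at an unadjusted p under 0.05 with eutherian CRX and 36 lower with metatherian CRX (all genes 10.8%), with medians of -1.40 and -0.62, and edgeR called 26 of them lower with eutherian CRX at an adjusted p under 0.05 in the same fit (all genes 0.603%). Their median difference between the orthologues was 0.66 higher with metatherian CRX, and 34 of the 46 were higher at an unadjusted p under 0.05 (all genes 7.41%), whereas the median of the replication genes was 0.029. The summed level of the mitosis genes was 655, 704 and 1099 CPM in control, 334, 333 and 450 CPM with eutherian CRX and 497, 419 and 693 CPM with metatherian CRX, so that each library numbered 3 was the highest of its condition. With either CRX the summed level of the members was also highest in replicate 3, but in control their summed level was lowest in replicate 3.

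The medians of 2 lists of other regulators around E2F were closer to 0 than those of the members. The 14 further E2F, DP, pocket protein and MuvB genes had medians of -0.047 and -0.0073. Of these, 2 were lower and 1 higher at an unadjusted p under 0.05 with each orthologue, where 7.16% and 10.8% of all genes were lower and 2.49% and 9.61% higher with eutherian and metatherian CRX. The higher gene was *Rb1*, the retinoblastoma pocket protein that holds E2F back, at 0.30 and 0.55. *Mybl2*, an E2F target of the same list, was at -1.23 and -1.41. The 10 CDK inhibitors and D cyclins had medians of -0.20 and -0.33, with 1 lower for eutherian CRX, and 4 lower and 1 higher for metatherian CRX, at an unadjusted p under 0.05, beside the same shares of all genes. The inhibitor gene *Cdkn1c* was lower with both orthologues, at -0.92 and -0.82. With metatherian CRX, *Cdkn1b* (-0.79), *Cdkn2c* (-0.50) and *Cdkn2d* (-0.69) were also lower, and *Ccnd1* (0.52), cyclin D1, was higher. *Cdkn1a*, the p21 inhibitor that p53 turns on, was chosen after its values were seen and was at 0.01 and 0.03.

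**Figure D4:**
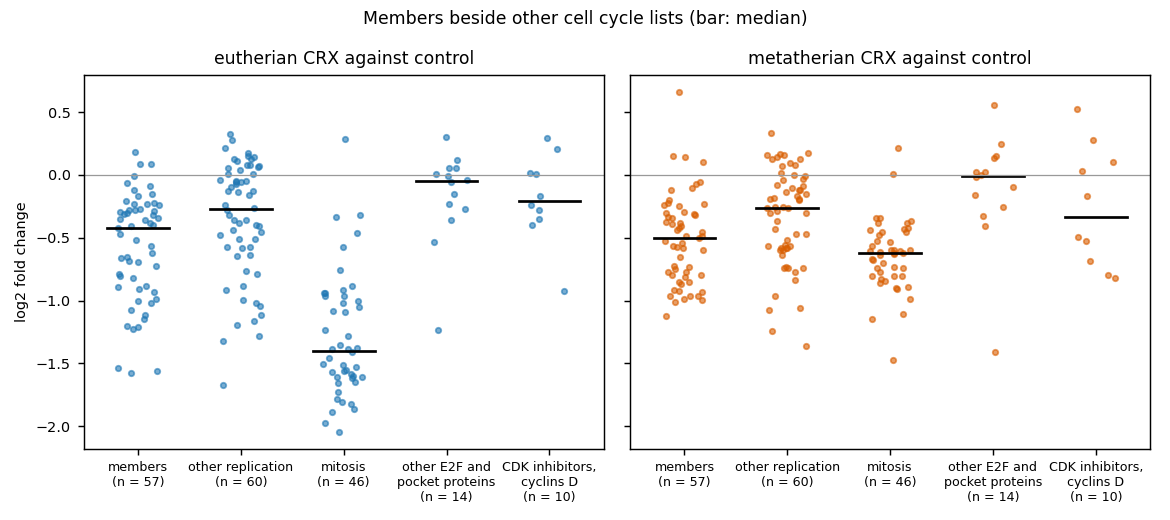
Log2 fold change against control (y axis) of the 57 members and of 4 other cell cycle lists, with eutherian CRX on the left and metatherian CRX on the right, from the fit of 14599 genes; points are genes and bars are medians. With eutherian CRX the mitosis genes (median -1.40) lie below the members (-0.42), and with metatherian CRX the medians are -0.62 and -0.50.

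The plot of lists shows that the members lay between the mitosis genes and the E2F and pocket protein genes with either orthologue. It is a description of counts and medians with no test between lists.

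Outside the members, the 5 genes whose log2 CPM followed the mean of the 45 tested members most closely over the 9 libraries were *Cdk2* (Pearson r = 0.976), *Atxn1l* (0.965), *Fzd7* (0.963), *Fignl1* (0.942) and *Fbxo5* (0.940). The 9 libraries share their conditions and scaling, so r is given as a description. *Cdk2*, the kinase partner of the E cyclins, was at 18.7, 19.6 and 17.9 CPM in control, 13.1, 12.5 and 14.3 CPM with eutherian CRX and 13.8, 12.3 and 15.4 CPM with metatherian CRX, with log2 fold changes of -0.50 and -0.45 in the fit of 10100 genes. Each tested member is part of that mean, so its r is partly with itself and not comparable with that of an outside gene. Among the members themselves, *Uhrf1* (r = 0.990), *Tyms* (0.973) and *Lig1* (0.966) followed that mean most closely, and *Dut* (-0.29), *Msh6* (-0.050), *Cdc25a* (0.013), *E2f1* (0.038) and *E2f8* (0.041) least.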

How the data were processed

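RNA-seq of 9 MEF libraries, 3 each of control, eutherian CRX and metatherian CRX, was analysed. Per the study's methods, the authors aligned paired reads with STAR to mm10 (GRCm38) and counted them on genes with featureCounts, and the raw counts were deposited without normalization or pooling. Which annotation release, strand setting and treatment of multiply aligned reads were used is not given in the sources used here. FPKM was computed from these counts and the merged exon length.

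Of 22068 genes, edgeR 4.0.16 (R 4.3.3) kept 14599 with filterByExpr and 10100 with a mean above 2 FPKM in at least 1 condition. TMM scaling and the quasi-likelihood test with the replicate number as a block were used, with Benjamini-Hochberg adjustment over all kept genes. Log2 CPM used a prior count of 2, and a standard error is the absolute log2 fold change over the root of the F statistic. The block was kept because the study describes paired preparation of samples. Of 9 same-number pairs of libraries, 8 had deviations from their condition means with a correlation over 0.1 (range 0.0034 to 0.75), which leaves unshown that a number marks a pair.

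No 2 replicates agreed within counting noise (chi-square over its degrees of freedom at least 22.0), and all 9 libraries were used. Genes given full statistics were members called, the 5 lowest and 2 highest fold changes per comparison with control, and 1 fixed gene per role. The members, the lists and the rules were chosen with earlier results of these data known, so no list is independent evidence. Alternatives were no block, 2 other scalings, DESeq2 1.42.0, 2 other filters, only the 6 libraries compared and each library left out, and, after seeing the data, all libraries numbered 3 left out and the settings for *E2f7* in the fit of 14599 genes. The study's marsupial embryo and qPCR data were not analysed here.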

Additional observations from a re-analysis of the deposited data

How the results depend on the processing

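Counts of members called at an adjusted p depended on the setting, as did the share of all genes called lower, given in brackets. With eutherian CRX, 2 members were called (0.584%), 0 with no replicate block (0%), 0 with only the 6 libraries compared (0%), 4 with no filter on low counts (0.579%), 14 with DESeq2 (2.92%), 16 without the libraries numbered 3 (2.47%), and from 0 to 7 with 1 library left out (7 without metatherian CRX replicate 3, 1.1%, and 0 in the other 8 fits). With metatherian CRX, 0 were called (0.0297%), 0 with no replicate block (0%), 22 with DESeq2 (5.27%), 1 with only the 6 libraries (2.2%), 32 without the libraries numbered 3 (11.1%), and from 0 to 13 with 1 library left out (12 where eutherian CRX replicate 3 was dropped, 4.97%, and 13 where metatherian CRX replicate 3 was, 2.23%). Between the orthologues 0 were called, 2 without the libraries numbered 3 (22.5% of all genes in either direction), and from 0 to 1 with 1 library left out (1 without eutherian CRX replicate 3, 3.47%). Members lower at an unadjusted p numbered 24 with eutherian CRX (6.34% of all genes), 36 without the libraries numbered 3 (10.2%), and with 1 library left out from 13 without control replicate 2 (4.74%) to 31 without control replicate 3 (4.67%). With metatherian CRX they numbered 25 (10.5%), 36 without the libraries numbered 3 (18.8%), and with 1 library left out from 16 without control replicate 2 (7.72%) to 32 without metatherian CRX replicate 3 (13.0%). Between the orthologues 0 were lower (4.13%), 1 with upper-quartile scaling (5.68%), 4 without the libraries numbered 3 (17.7%) and 0 to 4 with 1 library left out (4 without metatherian CRX replicate 3, 8.67%), while 1 was higher (7.41% of all genes), 2 without the libraries numbered 3 (19.6%) and 4 without metatherian CRX replicate 2 (3.85%), where the median of -0.023 became 0.061. The median with eutherian CRX was -0.37 over the 45 tested members, -0.36 with no replicate block, -0.47 without the libraries numbered 3, and -0.49 to -0.29 with 1 library left out. With metatherian CRX it was -0.44, and -0.54 to -0.36 with 1 library left out. The fit without control replicate 2 tested 43 members.

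The sign turned under at least 1 alternative in 7 members with eutherian CRX (*Cdt1*, *E2f1*, *E2f8*, *Msh6*, *Orc6*, *Rfc3* and *Rfc4*) and in 4 with metatherian CRX (*Dut*, *E2f1*, *Msh6* and *Orc6*). Without the libraries numbered 3, *Dut* with metatherian CRX was -0.054, *E2f1* 0.018 with eutherian and 0.16 with metatherian CRX, and *Msh6* -0.12 with metatherian CRX. With 1 library left out, *Dut* with metatherian CRX ranged from -0.032 to 0.20, *E2f1* from -0.24 to 0.085 and from -0.21 to 0.10, *Msh6* from -0.056 to 0.15 and from -0.080 to 0.17, and *E2f8* with eutherian CRX from -1.44 to 0.24. *E2f8* was 0.51 with no replicate block. The cause was not tested. In the fit of 14599 genes, *E2f2*, with 21 to 84 counts per library, had standard errors of 0.30 and 0.29, and *E2f8*, with 172 to 3137 counts, 0.60 and 0.56.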
